A study of Homo sapiens with 6 samples.

Results

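Cytosolic ribosomal protein genes encode the protein part of the ribosome that translates nuclear transcripts. They were taken as the symbols of the count table made up only of RPL or RPS, a number and an optional A or X. RPLP0, RPLP1, RPLP2 and RPSA were added, and a summed count of at least 600 over the 6 libraries was required. Of the 29804 symbols in the table, 77 had such a name and 75 passed, 45 of the large subunit and 30 of the small subunit. RPS10, with a summed count of 234, and RPL36A, with 325, fell below the limit, and RPL17, with 928, lay just above it. The next lowest were RPL39 with 10437 counts and RPL41 with 38142. All 75 members also passed the expression filter used for testing.

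RNA was sequenced from 22Rv1, an established prostate carcinoma line, in 3 groups of 2 libraries that the labels call biological replicates. WT cells were untreated and taken at week 0. Age-matched (AM) cells spent 6 weeks in culture with no drug. 6WP cells spent the same 6 weeks with 1 µg/ml phleomycin, a radiomimetic drug that breaks DNA, given for 1 hour on each weekday. After each exposure the drug was removed, the cells were washed and the medium was renewed. All groups carry the same genotype label and come from this 1 line. Culture time separates AM from WT, and the phleomycin treatment, with its washes and medium changes, separates 6WP from AM. 6WP differs from WT in both. Whether AM cells were washed in the same way is not stated in the paper.

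Each ribosome holds a single copy of nearly every ribosomal protein, with the acidic stalk proteins as the main exception. The mRNAs of this family are abundant and stable. Most begin with a cytosine followed by a run of pyrimidines, the 5′ terminal oligopyrimidine (TOP) motif, through which the growth kinase mTOR and the RNA-binding protein LARP1 control their translation and their storage.

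The first bases of the transcripts are shown for members at both ends of the range of responses described here. This is where most members carry the TOP motif. Each window runs from 15 bases before the RefSeq start site through 14 bases after it, so that base 16 is the first transcribed base. Sequences are from RefSeq on GRCh38.p14, written 5′ to 3′ on the transcribed strand, with the longest pyrimidine run in capitals. The windows and the motifs below were chosen after the expression values were known. RPL13A lies at chr19:49487593-49487622 on the plus strand, RPLP0 at chr12:120201097-120201126 on the minus strand, RPS6 at chr9:19380222-19380251 on the minus strand, RPL4 at chr15:66504841-66504870 on the minus strand and RPL3 at chr22:39319609-39319638 on the minus strand. RPSA lies at chr3:39406705-39406734 on the plus strand, RPL35 at chr9:124861943-124861972 on the minus strand, RPLP2 at chr11:809952-809981 on the plus strand and RPS26 at chr12:56041903-56041932 on the plus strand.
RPL13A: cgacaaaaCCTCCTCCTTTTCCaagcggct
RPLP0: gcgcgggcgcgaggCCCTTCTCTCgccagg
RPS6: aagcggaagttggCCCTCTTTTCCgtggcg
RPL4: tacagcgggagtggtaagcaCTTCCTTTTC
RPL3: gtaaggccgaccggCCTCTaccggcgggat
RPSA: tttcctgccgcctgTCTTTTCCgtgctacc
RPL35: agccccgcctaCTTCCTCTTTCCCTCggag
RPLP2: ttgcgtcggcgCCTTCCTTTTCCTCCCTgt
RPS26: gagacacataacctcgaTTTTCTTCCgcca

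A pyrimidine start, defined as C at the first transcribed base and only C or T at the next 4, was present in 44 of the 60 members with a RefSeq start window (73.3%). Among all 27305 symbols with a window the share was 5.14%, among mitochondrial ribosomal protein genes it was 8.96% (6 of 67), and among translation factors and other TOP genes it was 80% (16 of 20). The sequence TCTCGCGA on either strand, within 250 bases before and 50 bases after the start, occurred in 12 of 60 members (20%) and in 1.37% of all symbols. The motif CCGGAAG occurred in 35% of members and 12.2% of all symbols. It was also in 43.3% of mitochondrial ribosomal protein genes (29 of 67) and 25% of translation factors and other TOP genes. TATAAA occurred in 8.33% of members and 14% of all symbols, and CACGTG in 6.67% and 8.77%. RPL4, RPL3 and RPS26 have no pyrimidine start by this definition in the RefSeq window.

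The 75 genes lie on 21 chromosomes, with 12 on chromosome 19. In WT cells they took 10.66% and 10.71% of all counts, and 48 of them were among the 100 symbols with the most counts in each WT library. Levels between genes are compared as CPM (library-scaled counts, TMM normalised) per kb of coding sequence. On that scale the WT mean had a median of 2560 over the members, and 69 of 75 lay between 1000 and 5000. RPS27 and RPS18 stood highest, at 7556 and 6945 CPM per kb, and RPL17 stood lowest at 8.66. RPL17 shares 32.9% of its exon bases with the read-through gene RPL17-C18orf32, whose own row is 0 in all libraries, so its few counts are uncertain as a measure of the gene.

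Library totals ran from 21222201 to 35311945 counts, and members other than RPL17 had at least 1243 counts in every library. All 10 markers of prostate luminal epithelium were expressed, and their sum ranged from 3020 to 3220 CPM (scaled to the library total alone) in WT, 1920 to 2200 in AM and 2520 to 3390 in 6WP libraries. Basal, immune and endothelial markers were each at most 0.138 CPM, with KRT5, PTPRC and CD3E at 0 in all libraries, and 3 fibroblast collagens summed to 1.47 to 3.81 CPM. In AM against WT 5 of the 10 luminal markers fell, where 9.93% of all tested genes fell and 7.74% rose. KLK2 rose 1.75-fold (adjusted p = 0.00759, edgeR), and 4 were not called. The part of these luminal marker changes in the results below was not tested. The 6WP replicates differed from each other more than those of the other groups, with a chi-square of the counts, divided by its degrees of freedom, of 63.9 against 5.67 in WT and 9.14 in AM. Counts give each gene's share of the library, so a lower share cannot be told apart from a rise of other RNA, nor fewer cells of a kind from less RNA per cell.

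Ribosomal protein mRNAs were lower in AM cells than in WT cells. Together they took 10.7% ± 0.035 (SD, n = 2) of counts in WT, 7.55% ± 0.66 in AM and 12.3% ± 1.86 in 6WP. By library, AM replicates 1 and 2 held 7.083% and 8.015%, and 6WP replicates 1 and 2 held 11.03% and 13.66%. Relative to the WT mean, the median member lay at 0.693-fold (replicate 1) and 0.797-fold (replicate 2) in AM cells. In 6WP cells it lay at 1.04-fold and 1.31-fold. Both AM libraries lay below both WT libraries, the first 6WP library lay close to WT, and the second lay above all others.

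**Figure D1:**
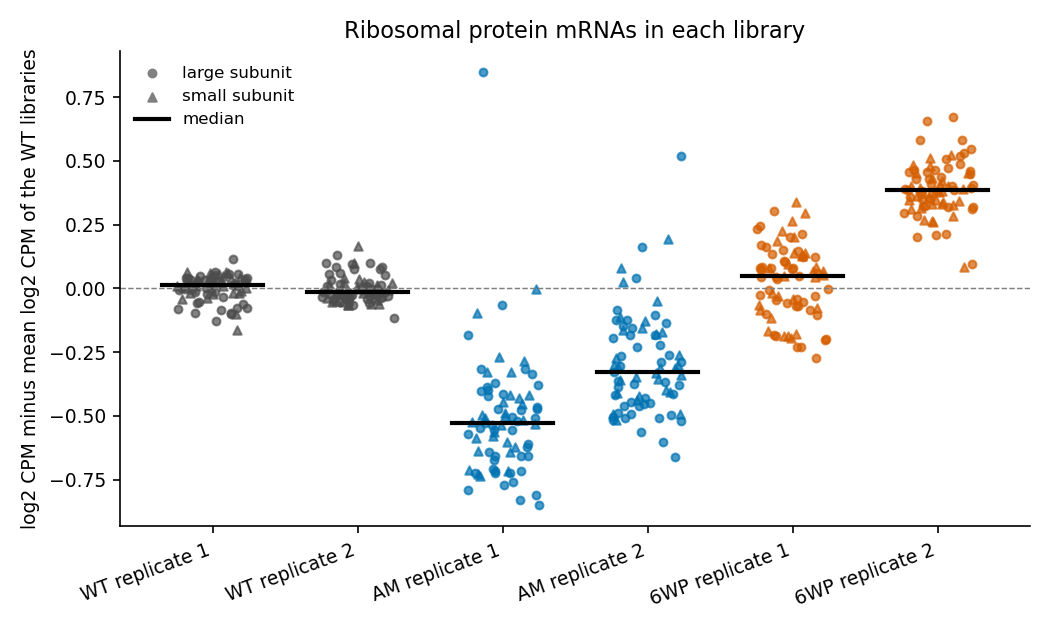
Level of each of the 75 ribosomal protein mRNAs in each library, as log2 CPM minus the mean log2 CPM of the WT libraries. Points are genes (circles, large subunit; triangles, small subunit) and bars are medians. The AM medians lie at -0.53 and -0.33, the 6WP medians at 0.05 and 0.39, and the high point in both AM libraries is RPL17.

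The comparison of AM with WT asks what 6 weeks of culture alone changed. By edgeR's quasi-likelihood test with Benjamini-Hochberg adjustment over 14672 genes, 21 of 75 members fell and 0 rose, where 17.7% of all tested genes changed, 9.93% fell and 7.74% rose. At an unadjusted p under 0.05 there were 48 lower members (18.3% of all genes) and 1 higher (17% of all genes). The median log2 fold change was -0.45 (0.734-fold), against 0.00 (-0.002) over all tested genes. Both AM libraries lay below both WT libraries in 68 members, while 36.9% of all genes had this pattern. Of the large subunit 17 of 45 fell, with a median of -0.45, and of the small subunit 4 of 30 fell, with a median of -0.40. The difference between subunits was not tested.

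RPL5, which carries the 5S ribosomal RNA into the large subunit and binds MDM2 when assembly fails, had the largest fall. It measured 1643 and 1662 CPM in WT, 918 and 1043 in AM, and 1560 and 2279 in 6WP. Its AM libraries lay well below all others, and 1 6WP library lay below WT. The log2 fold change was -0.75 ± 0.18 (SE; adjusted p = 0.0276) in AM against WT. RPL11, its partner in that particle, measured 1200 and 1153 CPM in WT, 878.1 and 977.6 in AM, and 1001 and 1718 in 6WP. The AM libraries were again the lowest, but the 6WP replicates were far apart and the change of -0.34 ± 0.22 was not called (adjusted p = 0.306).

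RPL10, a late-joining protein near the catalytic centre, measured 2041 and 2003 CPM in WT and 1152 and 1332 in AM. It fell by 0.70 on the log2 scale (SE 0.16, adjusted p = 0.0233). The annotation places 50.5% of its exon bases opposite genes on the other strand, and the strand setting of the counting is not given in the sources used here, although the library kit keeps the strand. RPL23 fell by 0.64 (SE 0.15, adjusted p = 0.0278), from 1502 and 1440 CPM to 861.4 and 1029.

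RPL13A, a surface protein of the large subunit and also a regulator of translation in inflammation, measured 3225 and 3324 CPM in WT, 1841 and 2301 in AM, and 3627 and 5165 in 6WP. Its groups did not overlap in any comparison. It fell by 0.66 (SE 0.19, adjusted p = 0.0467) in AM against WT. Its introns hold small nucleolar RNA genes, and 14.1% of its exon bases are shared on the same strand. RPL3, the member with the most counts, measured 4031 and 4088 CPM in WT, 2397 and 2894 in AM, and 4056 and 5607 in 6WP. It fell by 0.62 (SE 0.18, adjusted p = 0.0474).

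The stalk recruits the elongation factors to the ribosome. RPLP0, its base, measured 4024 and 3873 CPM in WT, 2413 and 2756 in AM, and 4170 and 5164 in 6WP, and fell by 0.61 (SE 0.15, adjusted p = 0.0278) in AM. RPL12, which binds beside it, fell by 0.51 (SE 0.14, adjusted p = 0.0433). Of the acidic tip proteins, RPLP1 had -0.30 ± 0.15 (adjusted p = 0.201) and RPLP2 -0.07 ± 0.14 (adjusted p = 0.763), and their difference from RPLP0 and RPL12 was not tested. RPLP2 measured 879.9 and 978.3 CPM in WT, 817.5 and 954.7 in AM, and 978.3 and 1214 in 6WP. Its AM and WT libraries overlapped.

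Around the peptide exit tunnel, 1 of 6 members fell, where 9.93% of all genes did. RPL4, which lines the tunnel, measured 3252 and 3172 CPM in WT, 1857 and 2175 in AM, and 3298 and 4408 in 6WP. It fell by 0.67 (SE 0.16, adjusted p = 0.0293). RPL23A, RPL26 and RPL39 had log2 fold changes of -0.46, -0.45 and -0.23 and were not called by edgeR's quasi-likelihood test, while the Wald test of DESeq2 and edgeR's likelihood ratio and exact tests called RPL26 lower. RPL35, at the tunnel's mouth, measured 682.1 and 664.9 CPM in WT, 644 and 753.8 in AM, and 796.8 and 840.3 in 6WP. Its AM libraries lay on either side of WT, with a change of 0.05 ± 0.12 (adjusted p = 0.770). RPL17 had 98 and 114 counts in WT, 200 and 233 in AM, and 138 and 145 in 6WP. Its AM libraries were the highest of the 3 groups in CPM, with a change of 0.68 ± 0.21 (adjusted p = 0.0560) that was not called by the quasi-likelihood test and was called higher by the other 3 tests.

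Along the mRNA path of the small subunit 0 of 6 members were called by edgeR's quasi-likelihood test, where 17.7% of all genes were. At an unadjusted p under 0.05, 2 were lower, where 18.3% of all genes were. The Wald test of DESeq2 and edgeR's likelihood ratio and exact tests called 1, RPS3, lower. RPS3, at the mRNA entry, measured 1778 and 1788 CPM in WT, 1088 and 1266 in AM, and 1587 and 2323 in 6WP, a change of -0.60 ± 0.18 (adjusted p = 0.0566). RPS2, RPS15, RPS23 and RPS28 lay between -0.42 and -0.27. RPS26, at the mRNA exit, measured 381.8 and 377.7 CPM in WT, 378.6 and 434.7 in AM, and 358.3 and 402.4 in 6WP. All 3 groups overlapped, and the change was 0.10 ± 0.12 (adjusted p = 0.574).

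RPS6, the ribosomal substrate of the S6 kinases, measured 2389 and 2374 CPM in WT, 1437 and 1691 in AM, and 2093 and 3185 in 6WP. Its AM libraries were the lowest, but the change of -0.61 ± 0.20 was not called by the quasi-likelihood test (adjusted p = 0.0668). The Wald, likelihood ratio and exact tests called it lower. RPS27A, made as a fusion with ubiquitin, had -0.38 ± 0.14 (adjusted p = 0.0901). RPSA, also known as the laminin receptor, measured 2360 and 2187 CPM in WT, 2126 and 2312 in AM, and 2871 and 2924 in 6WP. AM and WT overlapped, with a change of -0.03 ± 0.12 (adjusted p = 0.853), and both 6WP libraries lay above them. RPL31 had the lowest adjusted p of the family in this comparison (0.0170) and was picked out after its values were seen. It measured 876.1 and 849.2 CPM in WT and 541.4 and 605.7 in AM.

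**Figure D2:**
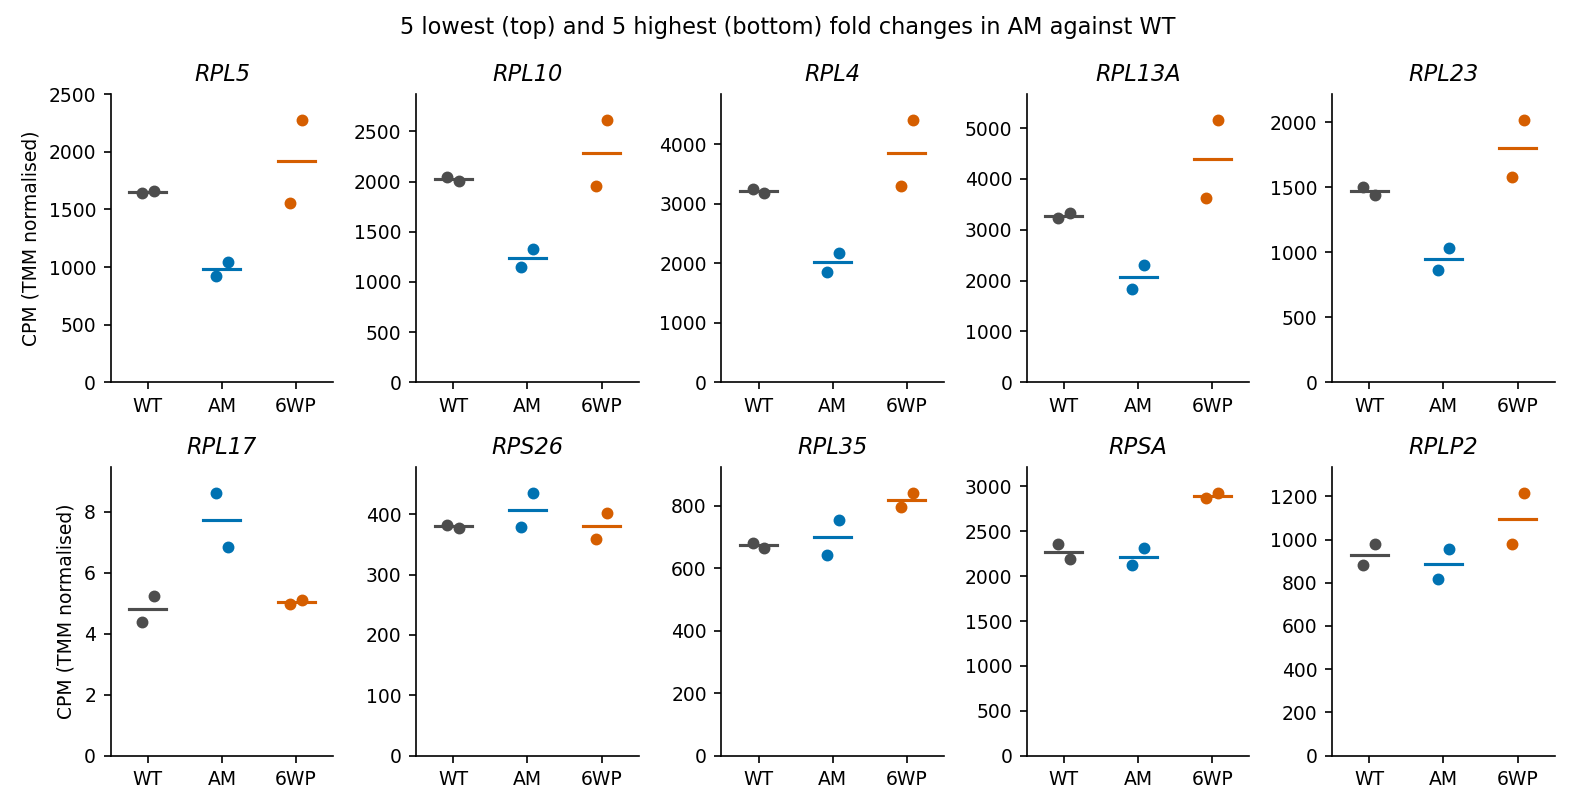
CPM of the 5 members with the lowest fold changes in AM against WT (top: RPL5, RPL10, RPL4, RPL13A, RPL23) and the 5 with the highest (bottom: RPL17, RPS26, RPL35, RPSA, RPLP2). Points are libraries and bars group means (n = 2); in the top row both AM libraries lie below both WT libraries, and in the bottom row this holds for none.

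Relative to the median of the whole family in the same library, 5 members stood more than 0.3 log2 units higher in both AM libraries. These were RPL17 at 1.38 and 0.85, RPS26 at 0.53 and 0.52, RPL35 at 0.46 and 0.49, RPSA at 0.43 and 0.35, and RPLP2 at 0.35 and 0.37. RPL5 stood lowest, at -0.32 and -0.34. These distances are a description, and the difference of a member from the family was not tested. Of the 100-base coding windows, 100% in RPS26, 68.2% in RPSA and 64.7% in RPL17 had an exact copy elsewhere in GRCh38. In RPL35 6.59% did, and in RPLP2 0%. The part of such copies in these distances was not tested.

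The AM call count depended on the libraries fitted. With only the WT and AM libraries, 64 members were lower and 1, RPL17, was higher, where 46.5% of genes were called and 22.7% were lower. Without 6WP replicate 1 or without 6WP replicate 2 it was also 64 lower and 1 higher, where 22.3% and 21.4% of genes were lower. Without WT replicate 1, WT replicate 2, AM replicate 1 or AM replicate 2 the count was 0. In those 4 fits 0.481%, 0.497%, 0.691% and 0.368% of all genes were called lower, and the lone library is assumed to vary like the other groups. At an unadjusted p under 0.05, 21, 23, 14 and 48 members were lower in them. The share of all genes at that unadjusted limit is not given for these 4 fits, so these counts lack that comparison. With all libraries that share was 18.3%. The median over members stayed between -0.54 and -0.34 in these leave-one-out fits.

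Ribosomal protein mRNAs were higher in 6WP cells than in AM cells, the comparison that separates the phleomycin treatment, with its handling, from time in culture. It shares the AM libraries with the comparison above. Of 75 members 51 were higher and 0 lower by the same edgeR test, where 21.3% of all genes changed, 11.7% were higher and 9.68% lower. The median log2 fold change was 0.66 (1.58-fold), against 0.05 over all genes. Both 6WP libraries lay above both AM libraries in 72 members, a pattern held by 33.8% of all genes. Of the large subunit 29 of 45 were higher and of the small subunit 22 of 30.

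The largest rise was in RPL13A, by 1.09 ± 0.19 (adjusted p = 0.00925). RPL5 followed with 0.97 ± 0.18 (adjusted p = 0.0110), then RPL4 with 0.93 ± 0.16 (adjusted p = 0.00937), RPL15 with 0.93 ± 0.15 (adjusted p = 0.00672) and RPL23 with 0.93 ± 0.15 (adjusted p = 0.00761). RPL15, a core protein of the large subunit, measured 1924 and 1920 CPM in WT, 1170 and 1404 in AM, and 2211 and 2698 in 6WP. In all 5 genes both 6WP libraries lay above both AM libraries.

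Of the stalk, RPLP0, RPL12 and RPLP1 rose, by 0.85, 0.76 and 0.72, and RPLP2 had 0.31 ± 0.14 (adjusted p = 0.163). Of the tunnel members RPL4 and RPL26 rose, the latter by 0.70 ± 0.14 (adjusted p = 0.0154). Of the mRNA path RPS2, RPS3 and RPS23 rose, by 0.56, 0.73 and 0.59. RPS6 and RPS27A rose by 0.75 and 0.58, with adjusted p of 0.0304 and 0.0232. RPSA had 0.38 ± 0.12 (adjusted p = 0.0505) and RPL35 0.23 ± 0.12 (adjusted p = 0.194). RPS26 had -0.10 ± 0.12 (adjusted p = 0.580), and RPL17 was lowest at -0.61 ± 0.20 (adjusted p = 0.0662). The likelihood ratio and exact tests called RPL17 lower, and these and the Wald test called RPSA higher. RPL39, a small tunnel protein, had 0.33 ± 0.19 (adjusted p = 0.229).

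The count was 20 with only the 2 groups compared, where 4.63% of genes were called higher. Without AM replicate 1 or AM replicate 2 it was 0, where 0.52% and 0.361% of all genes were called higher. At an unadjusted p under 0.05, 45 and 68 members were higher in those fits. The share of all genes at that unadjusted limit is not given for them, so these counts lack that comparison. With all libraries that share was 20.5%. Without WT replicate 1 or WT replicate 2 the count called was 21, where 4.53% and 4.42% of all genes were called higher. Without 6WP replicate 2 the median was 0.40, and 53 members were higher and 1, RPL17, lower, where 16% of all genes were higher.

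**Figure D3:**
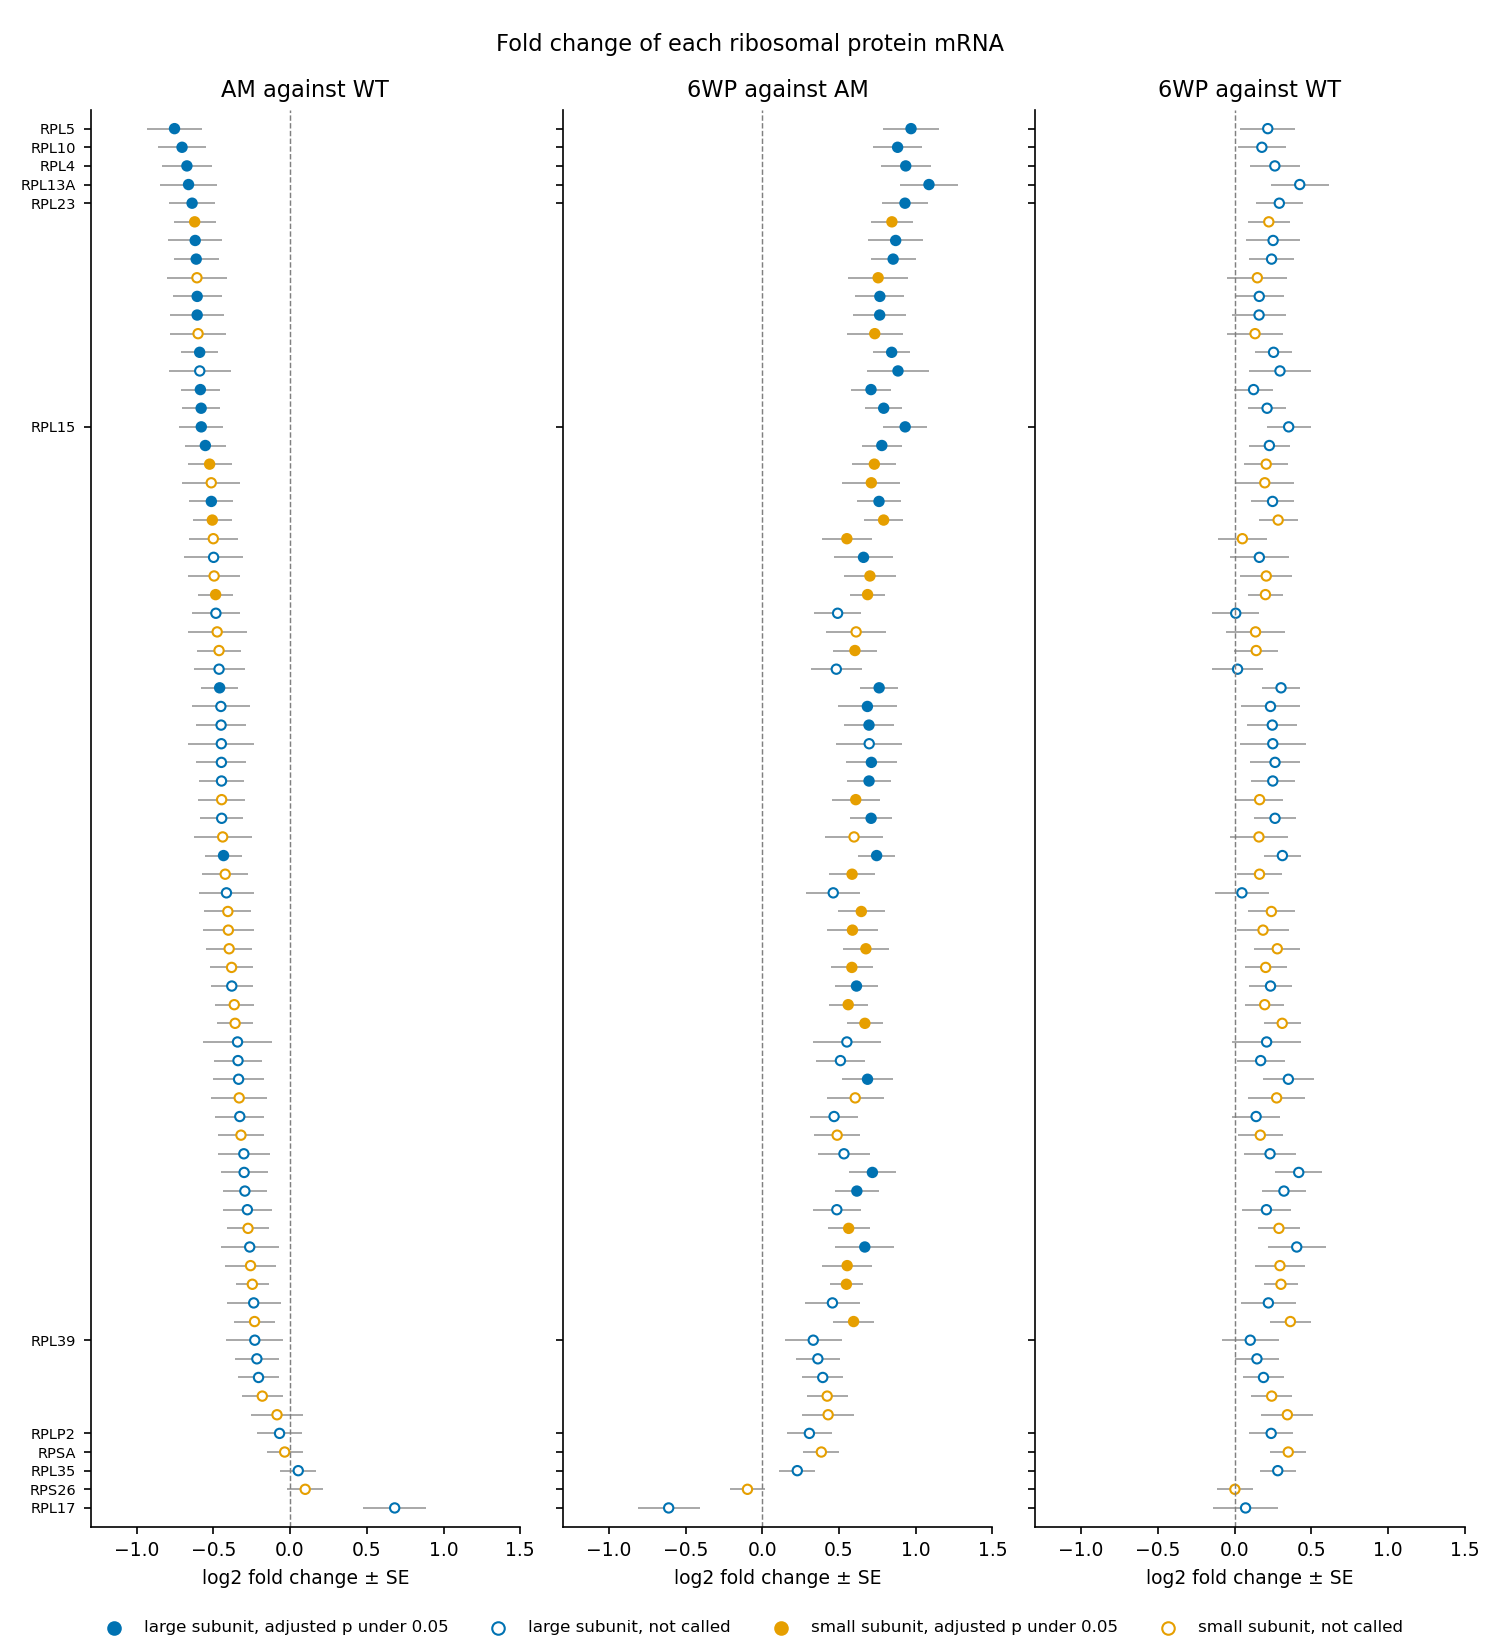
Log2 fold change with its standard error for each of the 75 members in the 3 comparisons, ordered by the change in AM against WT, with names for the 5 highest and 5 lowest of AM against WT and of 6WP against AM; filled points passed an adjusted p of 0.05. The comparisons share libraries, and the filled points number 21, 51 and 0 from left to right.

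Against WT, 0 members were called in 6WP cells by edgeR's quasi-likelihood test, where 3% of all genes changed, 1.63% higher and 1.37% lower. The lowest adjusted p was 0.135, and 9 members had an unadjusted p under 0.05, all higher, where 11.3% of genes were. The likelihood ratio and exact tests of edgeR and the Wald test of DESeq2 also called 0. The median log2 fold change was 0.23 (1.17-fold) against 0.01 over all genes. Both 6WP libraries lay above both WT libraries in 38 members, a pattern held by 25.5% of all genes.

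The replicates differed here. The second 6WP library was above the first in 75 of 75 members, by a median of 0.35 on the log2 scale. The first lay above both WT libraries in 38 members and below both in 27, and the second lay above both in 74. Without the first, 57 members were called higher, where 11.2% of genes were. Without the second, RPSA was called higher and RPL41 lower, where 26% of genes were called, and the median was 0.02. The family's level against WT therefore depended on which 6WP library was fitted.

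Among the highest fold changes in 6WP against WT were those of RPL13A at 0.42 ± 0.19 (adjusted p = 0.230), RPLP1 at 0.42 ± 0.15 (adjusted p = 0.163), RPL36 at 0.41 ± 0.19 (adjusted p = 0.257) and RPL15 at 0.35 ± 0.14 (adjusted p = 0.203). RPLP1 measured 1030 and 1179 CPM in WT, 792.4 and 1003 in AM, and 1361 and 1591 in 6WP, with 6WP above all other libraries. The lowest were RPS26 at 0.00, RPL21 at 0.01, RPL23A at 0.02, RPL41 at 0.05 and RPS12 at 0.05, with adjusted p from 0.887 to 0.994. RPL41, which encodes the shortest ribosomal protein, measured 252.1 and 273.8 CPM in WT, 199.6 and 195.1 in AM, and 217.5 and 326.2 in 6WP. Its 6WP libraries lay on either side of WT.

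Among members, the AM change was related to coding length and level. Over 75 genes, Spearman's rho of the log2 fold change in AM against WT was -0.49 with coding length and -0.40 with mean CPM. For 6WP against AM it was 0.42 and 0.43. These describe genes measured in the same libraries, which are not independent, and the AM libraries enter both comparisons. Members at or above the median coding length of 459 bases had a median change of -0.49 in AM, and 15 of 38 fell. Shorter ones had -0.38, and 6 of 37 fell, where 9.93% of all genes did.

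Members with a pyrimidine start had a median of -0.43 in AM against WT and 0.65 in 6WP against AM (44 genes). Those without had -0.39 and 0.61 (16 genes). Many members have processed pseudogenes elsewhere in the genome, and reads may be lost or shared among them. In 22 of 74 members no 100-base window of the coding sequence had an exact copy elsewhere in GRCh38, and their median in AM against WT was -0.35. In 16 members over 50% of windows did, with a median of -0.44. Symbols of ribosomal protein pseudogenes held 1717 to 2954 counts per library in all.

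Some ribosomal proteins carry other names. RACK1, listed as GNB2L1, a signalling scaffold on the small subunit, measured 1945 and 2002 CPM in WT, 1124 and 1367 in AM, and 1845 and 2794 in 6WP. It had -0.66 ± 0.20 (adjusted p = 0.0533) in AM against WT, where the Wald, likelihood ratio and exact tests called it lower, and rose by 0.90 ± 0.20 (adjusted p = 0.0190) in 6WP against AM. FAU, a fusion with a ubiquitin-like protein, measured 447.6 and 461.9 CPM in WT, 494.1 and 571.1 in AM, and 543.5 and 586.9 in 6WP. FAU passed the test in no comparison, with log2 fold changes of 0.23 (adjusted p = 0.197) in AM against WT, 0.09 (adjusted p = 0.620) in 6WP against AM and 0.31 (adjusted p = 0.165) in 6WP against WT. Without 6WP replicate 1 it had 0.35 (adjusted p = 0.0211) in 6WP against WT, and without 6WP replicate 2, which enters the shared estimate of spread, 0.23 (adjusted p = 0.0316) in AM against WT.

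Paralogs of ribosomal proteins replace their parents in some tissues. Of RPL22L1, RPL36AL, RPL39L, RPL26L1, RPL7L1 and RPS27L, 0 were called in any comparison by edgeR's test, where 3% to 21.3% of all genes were. At an unadjusted p under 0.05, 3 were higher in AM against WT, where 17% of all genes were. At that limit 1, RPL36AL, was lower in 6WP against AM, where 16.7% of all genes were. The Wald test of DESeq2 and the likelihood ratio and exact tests of edgeR called RPL26L1 higher in AM against WT and RPL36AL lower in 6WP against AM. RPL39L, best known from testis, measured 44.87 and 40.15 CPM in WT, 69.28 and 75.87 in AM, and 72.14 and 30.62 in 6WP. Its 6WP replicates lay on either side of WT, and AM lay above WT. RPL26L1 measured 25.45 and 21.82 CPM in WT, 35.26 and 35.27 in AM, and 33.74 and 22.03 in 6WP, with AM above the WT libraries.

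**Figure D4:**
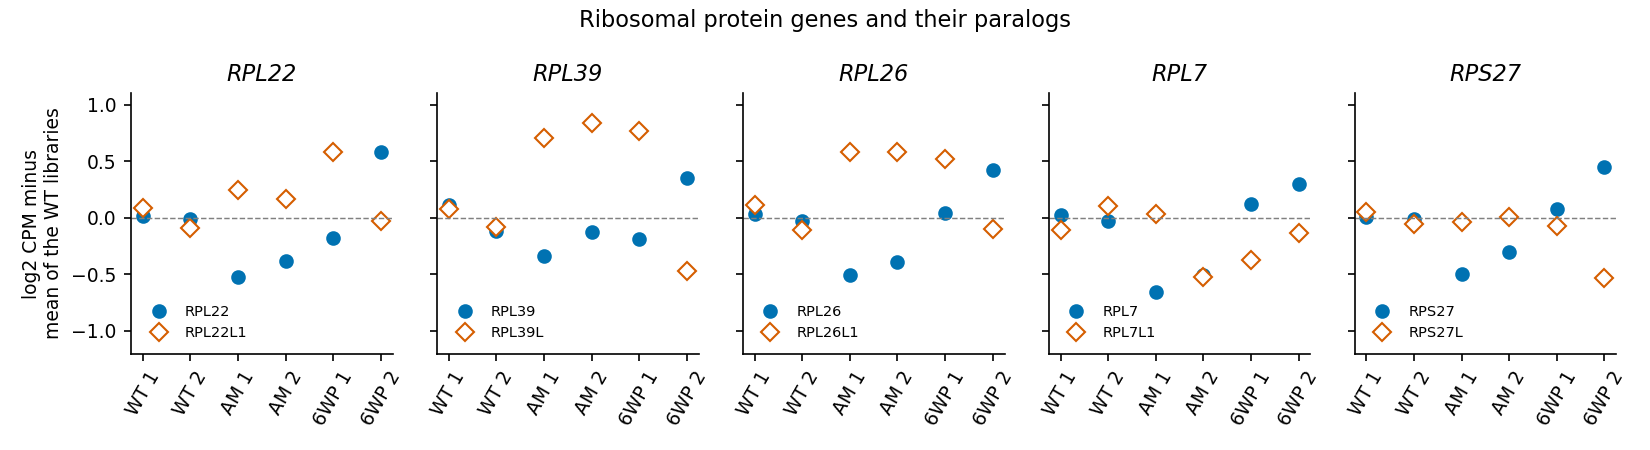
Level of 5 ribosomal protein genes (filled circles) and their paralogs (open diamonds) in each library, as log2 CPM minus the mean of the WT libraries. In AM, RPL22L1, RPL39L and RPL26L1 lie above the WT mean and their parents below it, and 0 of the paralogs were called by the quasi-likelihood test.

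Mitochondrial ribosomal proteins are encoded by separate nuclear genes and build the ribosome inside mitochondria. In AM against WT 17 of 75 tested rose and 1, MRPL30, fell, where 7.74% of all genes rose and 9.93% fell. The median log2 fold change of these 75 genes was 0.34. Both AM libraries lay above both WT libraries in 66 of them, where 36.9% of all genes had this pattern. MRPL54 measured 33.44 and 29.26 CPM in WT, 54.68 and 57.5 in AM, and 62.27 and 48.21 in 6WP. It rose by 0.84 ± 0.15 in AM (adjusted p = 0.0115) and by 0.82 ± 0.15 in 6WP against WT (adjusted p = 0.0335), where it was the 1 gene of the list called. In 6WP against AM 12 fell and 0 rose, where 9.68% of all genes fell, with a median of -0.18. Their direction in AM was thus opposite to that of the cytosolic members, and the difference between the lists was not tested. Without any 1 WT or AM library the calls in AM against WT did not hold, and few of all tested genes were called. Without 6WP replicate 1 or 6WP replicate 2 more of the list was called, as was more of all tested genes.

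Among translation factors and other TOP genes, those called in AM were lower, as for the cytosolic ribosomal proteins. In AM against WT 7 of 28 fell and 0 rose, where 9.93% of all genes fell, with a median of -0.31. EIF3L, a subunit of the initiation factor eIF3, measured 685.5 and 678.6 CPM in WT, 328.5 and 387.2 in AM, and 528.5 and 860.6 in 6WP, and fell by 0.93 ± 0.21 (adjusted p = 0.0239) in AM. EEF2, which moves the ribosome along the mRNA, measured 3534 and 4194 CPM in WT, 1979 and 2217 in AM, and 3633 and 5321 in 6WP, and fell by 0.88 ± 0.19 (adjusted p = 0.0216). EIF3F, EIF4B, EEF1G, PABPC1 and EIF3E made up the rest. In 6WP against AM 14 rose, where 11.7% of all genes did, EEF2 most with 1.09 ± 0.19 (adjusted p = 0.00977), and IPO5, an importin, fell; the median was 0.47. In 6WP against WT 0 were called, where 3% of all genes were. At an unadjusted p under 0.05, 1 was higher and 2 were lower, where 11.3% and 11% of all genes were. The Wald, likelihood ratio and exact tests each called 1. Without any 1 WT or AM library the calls in AM against WT did not hold. Those in 6WP against AM did not hold without AM replicate 1 or AM replicate 2. In all these fits few of all tested genes were called.

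Ribosome biogenesis factors, which process ribosomal RNA and assemble subunits, included 8 of 84 (9.52%) that rose in AM against WT, close to the 7.74% of all genes, and 0 that fell, where 9.93% of all genes did, with a median of 0.18. In 6WP against AM 8 fell, also close to the share of all genes (9.68%), and NOB1, the nuclease of late small subunit maturation, rose by 0.64 ± 0.12 (adjusted p = 0.0103). In 6WP against WT DDX49 was the 1 gene called, and it rose. Of 20 RNA polymerase I subunits and factors, 2 rose and 2 fell in AM against WT, 2 rose and 3 fell in 6WP against AM, and 0 were called in 6WP against WT by edgeR's quasi-likelihood test or the other 3 tests, with 1 lower at an unadjusted p under 0.05. These polymerase counts, 20% and 25% called in AM against WT and in 6WP against AM, lay near the 17.7% and 21.3% of all genes. In AM against WT the calls of both lists also did not hold without any 1 WT or AM library, where few of all tested genes were called. Without 6WP replicate 1 or 6WP replicate 2 the biogenesis factors had 35 and 37 calls in either direction, near the share of all genes called in those fits (43.9% and 44.7%).

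**Figure D5:**
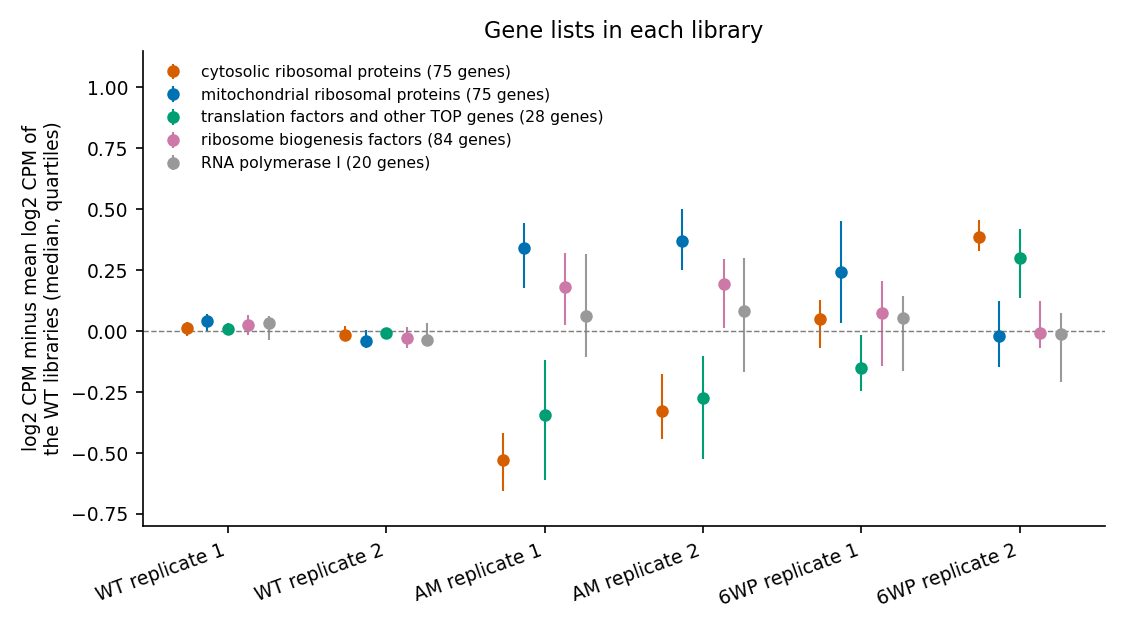
Median and quartiles over genes of log2 CPM minus the mean of the WT libraries for 5 gene lists in each library. Cytosolic ribosomal proteins and translation factors lie below WT in both AM libraries, where mitochondrial ribosomal proteins lie above it (medians 0.34 and 0.37).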

How the data were processed

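For 6 libraries, the authors deposited whole-number counts for each gene symbol, made from 100 bp single end reads of a stranded TruSeq kit. The submitters' processing notes and the paper name STAR 2.5.3a on hg38, featureCounts 1.5.3, StringTie 1.3.3, edgeR 3.22.3 and R 3.5.0. The strand setting and the gene annotation are not given in the sources used here. From these counts, genes were kept with filterByExpr over 3 groups (14672 genes), TMM factors were computed, and all 6 libraries were fitted with edgeR 4.0.16 (R 4.3.3) quasi-likelihood models without covariates. p-values, all two-sided, were adjusted by Benjamini-Hochberg at 0.05 and measure only the spread between these libraries. The SE was derived as the size of the log2 fold change over the square root of the F statistic. An exact permutation of 2 against 2 libraries cannot go below 0.333. DESeq2 1.42.0 was an alternative. Gene models are GENCODE 44 on GRCh38, which matched 21919 of 29804 symbols.

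Named genes were the 5 highest and 5 lowest fold changes per comparison, the 3 members with the most counts, genes fixed by role, and genes marked in the text as picked later. The members and lists were chosen with earlier results of these data known. RefSeq start windows were matched by symbol for 60 members, and 15 had none, among them RPL5, RPL7, RPL8, RPL23, RPL23A, RPL30, RPL37, RPS2, RPS15A and RPS20. A few genes of the family and its lists are not reported here. The pipeline was tested on simulated data.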

Additional observations from a re-analysis of the deposited data

How the results depend on the processing

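The median change of the members kept its direction under all 19 alternative fits. In 6WP against WT the count of members called was 0 except in leave-one-out fits, which ranged from 0 to 57 (57 without 6WP replicate 1, 2 without 6WP replicate 2), and the leave-one-out medians ranged from 0.02 to 0.37. In 6WP against AM it was 20 with only the 2 groups compared, and the leave-one-out medians ranged from 0.40 to 0.80. The count varied with the library left out. In AM against WT it was 35 under upper quartile scaling, 35 under library size alone, 36 with no filter beyond 1 count, 33 with the likelihood ratio test, 33 with the exact test, 65 with only the 2 groups compared and 40 with a replicate block and a gene length offset, and 0 to 65 in leave-one-out fits. The cause of these differences was not tested. In AM against WT 46.5% of all genes were called with only the 2 groups compared, and 17.7% with all libraries. For the other scaling, filter, test, block and length settings the share of all genes called is not given. Their counts therefore lack that comparison.

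A replicate block gave 25 calls in AM against WT (21 without it), 62 in 6WP against AM (51 without it) and 0 in 6WP against WT (0 without it). Over expressed genes, replicate deviations from group means correlated weakly, at 0.10 (WT and AM), 0.12 (WT and 6WP) and -0.07 (AM and 6WP). Of the 75 members, replicate 2 lay above replicate 1 in 28 in WT, 73 in AM and 75 in 6WP. Whether replicate numbers pair the libraries was not tested. Upper quartile normalization moved the median of all genes in 6WP against AM to 0.14, where the members had 0.75. Gene lengths were known for 87.8% of tested genes. In 6WP against WT 2 genes were called in opposite directions depending on the 6WP library left out. RPL41 was called lower at -0.299 without 6WP replicate 2 and higher at 0.295 without 6WP replicate 1 (0.05 with all libraries), and RPL39L lower at -0.489 without 6WP replicate 1 and higher at 0.736 without 6WP replicate 2 (0.27 with all libraries). Besides these, 87 of 2008 values changed sign without passing the test on either side. Calls of mitochondrial ribosomal proteins in AM against WT did not hold without any 1 WT or AM library, where few of all tested genes were called. Members other than RPL17 had at least 1243 counts in each library.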
